A study of Mus musculus with 16 samples.

Results

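Colon RNA of weaned mouse pups was examined for 10 genes that govern growth before birth. They were the mRNA-binding proteins Igf2bp1, Igf2bp2 and Igf2bp3, the growth factors Igf2 and Igf1, the noncoding RNA H19, the receptors Igf1r and Igf2r, and the RNA-binding proteins Lin28a and Lin28b. A gene was taken when its name stood in the scanner output of the arrays or in the deposited gene matrix, and all 10 were found among the 36711 genes tested. Each gene had 1 to 4 probes, and there were 24 probes in all.

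The pups were born by C-section (CSD) or vaginally (VD) and sampled at weaning, 8 pups per delivery mode with 1 1-colour Agilent array per pup. All were RjOrl:SWISS mice, an outbred stock, kept under specific-pathogen-free conditions. CSD pups were taken by hysterectomy late in gestation and nursed by foster mothers that had delivered vaginally, and the VD litters were exchanged between their mothers, so that pups of both groups were raised by a female other than their own mother. The CSD group held 4 females and 4 males from the litters of mothers 3 and 4 (4 pups each), and the VD group 2 females and 6 males from the litters of mothers 5 (5 pups) and 6 (3 pups). Each of 2 slides carried 4 CSD and 4 VD pups. Delivery mode therefore varied only between 2 litters per group, and the spread between pups is partly a spread within litters. Between 58.7% (VD pup 11) and 64.9% of the spots other than controls lay well above background, and the next lowest array was CSD pup 7, at 61.6%. No spot was saturated.

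The IGF system drives fetal growth. Igf2 and Igf1 signal through Igf1r, while Igf2r carries Igf2 to the lysosome for degradation, and Igf2, H19 and Igf2r are imprinted in the mouse. The Igf2bp proteins bind mRNAs such as those of Igf2 and Myc and govern their stability and translation, and Lin28a and Lin28b block the processing of let-7 microRNAs, which in turn repress Igf2bp1, Lin28b and other fetal mRNAs. Several of these genes are shut down in many tissues around birth or in the first weeks of life, and in the intestine Igf2bp1 is known from the fetal epithelium and from crypts.

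The let-7 microRNAs link the Lin28 proteins to the Igf2bp proteins, and they act through a seed of 7 bases (bases 2 to 8 from the 5′ end, shown in capitals). In the RefSeq table (GRCm38.p6), let-7 and miR-98 sequences of the 5p arm or with no named arm were read, and 3p arms were left out. Of the 11 sequences read, 10 carried the same seed, and let-7j did not. Examples of them are shown with both arms of miR-675, which is cut from H19. The arrays measured the host and regulators of these microRNAs and not the microRNAs themselves.
mmu-let-7a-5p: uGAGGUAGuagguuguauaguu
mmu-let-7d-5p: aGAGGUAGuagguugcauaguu
mmu-let-7g-5p: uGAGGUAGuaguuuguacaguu
mmu-miR-98-5p: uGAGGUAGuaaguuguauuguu
mmu-let-7j: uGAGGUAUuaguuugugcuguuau
mmu-miR-675-5p: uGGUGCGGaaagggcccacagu
mmu-miR-675-3p: cUGUAUGCccuaaccgcucagu

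Probes of a gene, each of 60 bases, differed in whether they were detected, and probes in noncoding RNA or coding sequence are shown as examples of both. Both H19 probes lie in this noncoding RNA on the minus strand of chromosome 7 (mm9). The first, at chr7:149761492-149761551, was well above background on all 16 arrays, and the second, at chr7:149762173-149762232, on 2 of them. The Igf2bp3 probe at chr6:49057401-49057460 (minus strand) encodes part of a KH domain, the RNA-binding module of this family, and the Lin28b probe at chr10:45140412-45140471 (minus strand) encodes part of the cold-shock domain that contacts let-7 precursors. Both coding probes stayed within background on all 16 arrays.
H19 probe 1: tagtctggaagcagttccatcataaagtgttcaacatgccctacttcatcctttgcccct
H19 probe 2: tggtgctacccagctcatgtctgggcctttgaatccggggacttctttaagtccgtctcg
Igf2bp3 probe 2: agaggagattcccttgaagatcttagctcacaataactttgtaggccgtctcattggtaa
Lin28b probe 2: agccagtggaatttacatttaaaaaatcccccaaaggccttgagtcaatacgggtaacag

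Of the 24 probes, those of Igf2bp2, Igf1 and Igf2r were well above background on every array. The dimmer of the 2 Igf2 probes passed on 14 arrays, and of the 4 Igf1r probes 3 passed on 16 and 1 on 15. Igf2bp1 has a single probe, which passed on 15 arrays and failed in VD pup 11. Of the 3 Igf2bp3 probes 1 passed on every array and the other 2 on none, and Lin28a was split in the same way, with 1 probe above background on all arrays and 1 on none. Lin28b was not well above background in most pups. Of its 4 probes, 2 never passed, 1 passed in CSD pups 5 and 7, and 1 passed in VD pup 11. The lowest signal well above background lay between 6.05 and 6.43 log2 units over the 16 arrays.

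**Figure D1:**
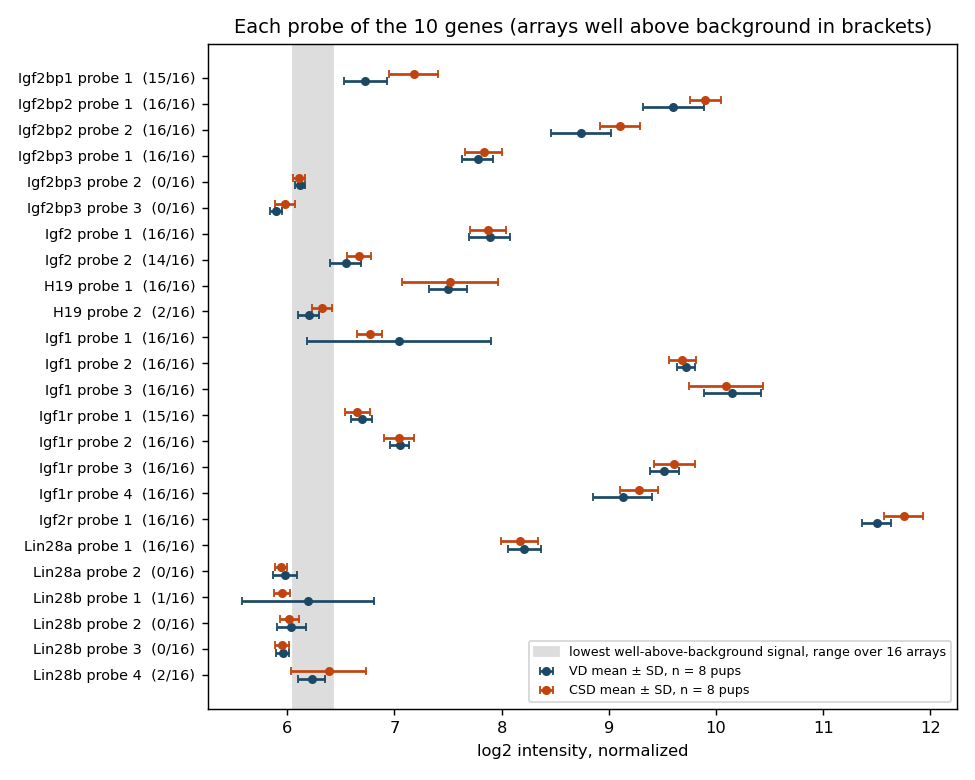
Mean normalized log2 intensity (x axis) of each probe of the 10 genes (y axis) in VD and CSD pups, with bars of ± SD over 8 pups. The grey band spans the lowest well-above-background signal of the 16 arrays, from 6.05 to 6.43. The brackets count the arrays on which a probe was well above background. At or near the band lie 2 of 3 Igf2bp3 probes, 1 of 2 Lin28a probes, the second H19 probe and the Lin28b probes.

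To ask whether delivery mode moved these genes, CSD and VD pups were compared with limma (delivery mode and sex as fixed effects, mother as a random effect, Benjamini-Hochberg adjustment over all genes). None of the 10 genes passed an adjusted p under 0.05, against 1.25% of all genes tested (460 of 36711, 259 higher and 201 lower in CSD). With a normexp offset of 0 instead of 50, 102 genes passed, 43 of them higher. At an unadjusted p under 0.05, 3 of the 10 stood out against 14.5% of all genes (5307), and all 3 (Igf2bp1, Igf2bp2 and Igf2r) were higher in CSD pups. Of the 10 genes, 7 were higher in CSD pups and 3 lower, where 51.7% of all genes were higher, and their median log2 fold change was 0.05 against 0.00 for all genes. No single probe of the 10 genes passed either, against 1.74% of all 56366 probes.

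**Figure D2:**
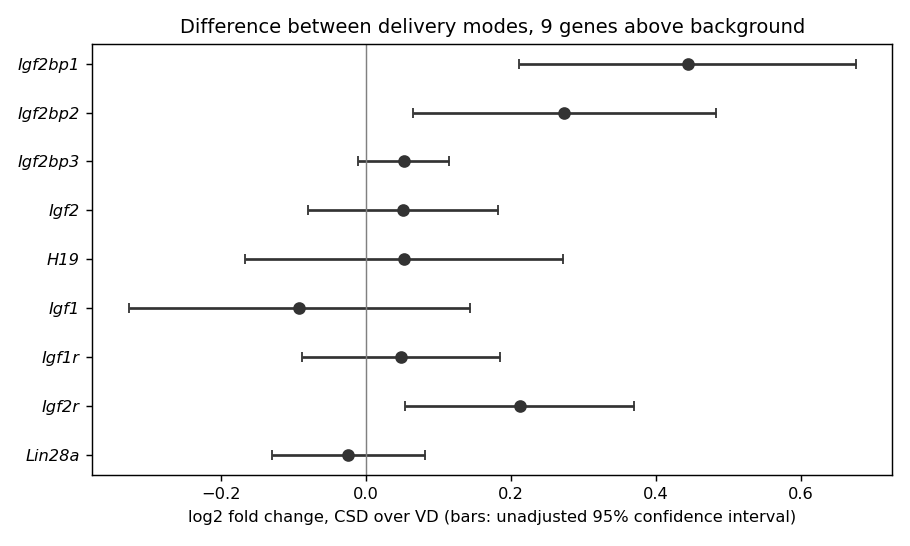
Log2 fold change of CSD over VD pups (x axis) for the genes well above background on at least 8 arrays (y axis, Lin28b left out), with unadjusted 95% confidence intervals from limma. The intervals of Igf2bp1 (0.21 to 0.68), Igf2bp2 (0.06 to 0.48) and Igf2r (0.05 to 0.37) lie above 0 and those of the other 6 genes include 0.

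Igf2bp1 showed the largest difference of the 10 genes. Its log2 intensity was 6.95, 7.15 and 7.67 (lowest, median and highest) in CSD pups and 6.45, 6.69 and 7.16 in VD pups. All 8 CSD pups lay above 7 of the 8 VD pups, and VD pup 7, at 7.16, reached into the CSD range, so that 3 CSD pups exceeded every VD pup. The groups did not overlap for 0.493% of all genes. CSD pups were higher by 0.44 on the log2 scale (standard error 0.11, unadjusted p = 0.00096, adjusted p = 0.0614, limma), or 1.36-fold with a 95% interval from 1.16 to 1.60. The model used a single litter correlation for all genes (0.0152), so it treated pups of a litter as nearly independent. These p-values and this interval therefore do not allow for litter differences particular to Igf2bp1. Nor does the interval cover the offset of 50, which compresses low signals: with offset 0 the log2 difference was 0.76. With sex and litters ignored, the exact permutation p of the difference in means was 0.00124 (two-sided, 8 pups per group). For the probe, adjusted over all probes, limma gave an adjusted p of 0.0505.

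The call on Igf2bp1 turned on the processing, on sex in the model, and on VD pup 7 or the litter of mother 6. In the gene matrix that the authors deposited, Igf2bp1 was at 6.17, 6.50 and 7.25 (lowest, median and highest) in CSD and 5.34, 5.76 and 6.36 in VD pups, and 6 CSD pups exceeded every VD pup. There the difference was 0.78 with an adjusted p of 0.0489 (same model, limma), and Igf2bp1 passed. It also passed with sex left out of the model (0.45, adjusted p = 0.0263), without VD pup 7 (0.50, adjusted p = 0.0211) and without the litter of mother 6 (0.54, adjusted p = 0.00815), and without the litter of mother 5 the difference was 0.26 (adjusted p = 0.564). Over 38 alternatives the log2 fold change of Igf2bp1 stayed positive, between 0.26 and 1.01, with an adjusted p from 0.00815 to 0.619. Within slide 1 it was 0.37 and within slide 2 0.50.

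Igf2bp1 also varied between litters of the same delivery mode. Its litter means were 7.02 (mother 3) and 7.33 (mother 4) in CSD pups and 6.63 (mother 5) and 6.89 (mother 6) in VD pups, so both CSD litter means were above both VD litter means. Pups of mother 3 were lower than those of mother 4 by a log2 difference of -0.31 with sex in the model (unadjusted p = 0.0147, adjusted p = 0.475, limma), and pups of mother 5 lower than those of mother 6 by -0.29 (unadjusted p = 0.0293, adjusted p = 0.351, limma). Among all genes 0.0872% passed between the CSD litters and 0.874% between the VD litters, and none of the 10 genes was among them.

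Igf2bp2, the family member that remains on in many adult tissues, was at 9.23, 9.53 and 9.74 in CSD and 8.78, 9.13 and 9.57 in VD pups (lowest, median and highest log2 intensity). The groups overlapped, with 3 CSD pups above every VD pup. The difference was 0.27 (standard error 0.10, unadjusted p = 0.0137, adjusted p = 0.19, limma). With sex and litters ignored, the means differed by 0.33 and the exact permutation p was 0.0129 (two-sided, 8 pups per group). Both probes were higher in CSD pups, by 0.25 and 0.30. The VD litter means were 9.31 for mother 5 and 8.93 for mother 6 (log2 difference with sex in the model 0.30, unadjusted p = 0.0308, adjusted p = 0.357, limma). Without the litter of mother 5 the CSD difference was 0.50, and without that of mother 6 it was 0.17.

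Igf2bp3, an oncofetal member of the family, was at 6.59 to 6.68 in CSD and 6.54 to 6.70 in VD pups as the mean of its 3 probes. Of the VD pups 6 lay below every CSD pup and 1 above every CSD pup, and the log2 fold change was 0.05 (95% interval -0.01 to 0.11, adjusted p = 0.453, limma). Its 1 probe above background was at 7.64 to 8.12 in CSD and 7.61 to 8.08 in VD pups, and differed by 0.09 log2 units (adjusted p = 0.651, limma).

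**Figure D3:**
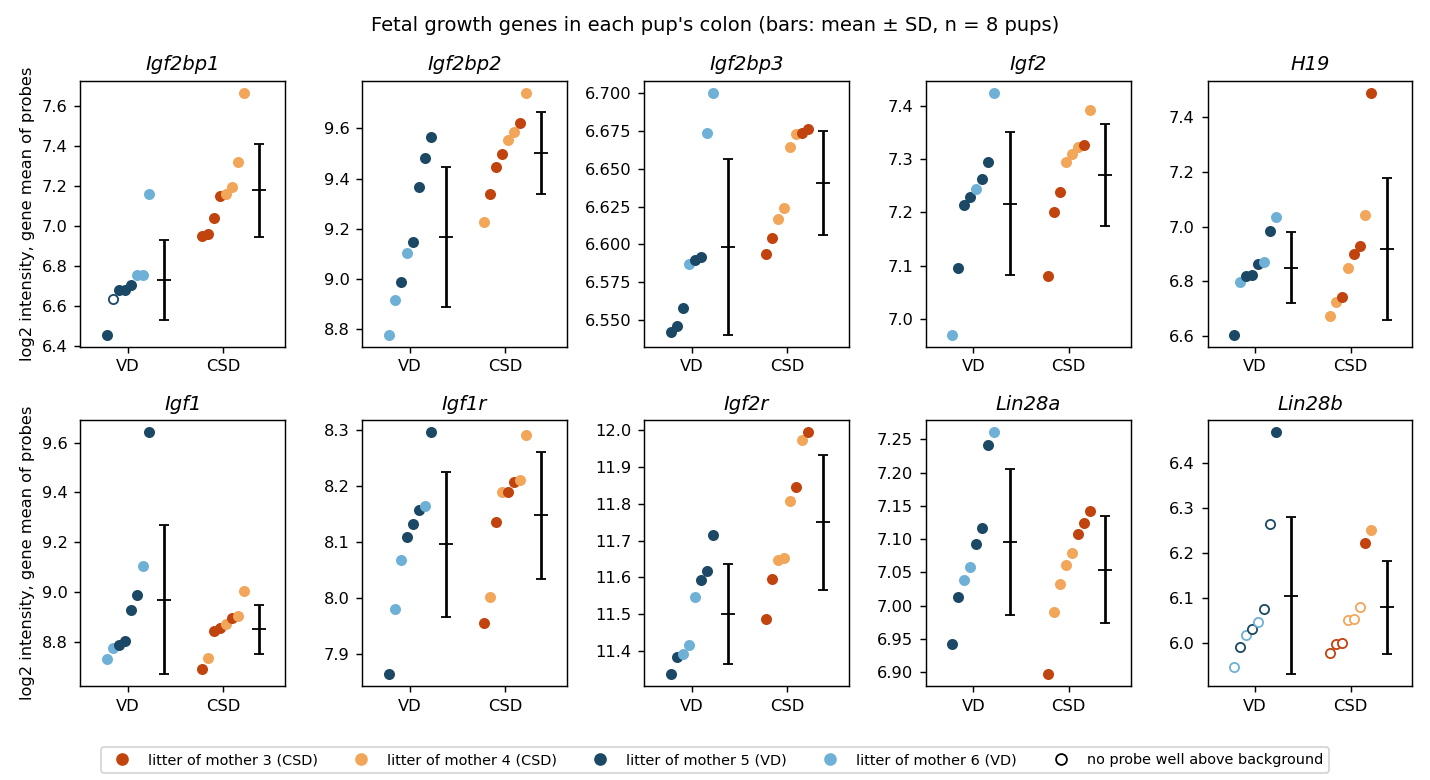
Log2 intensity (y axis, one scale per panel) of the 10 genes in each VD and CSD pup, coloured by litter, with mean ± SD over 8 pups; an open symbol marks a pup in which no probe of the gene was well above background. CSD pups sit higher for Igf2bp1, Igf2bp2 and Igf2r with some overlap, and VD pup 11 stands alone at 9.64 in Igf1 and CSD pup 5 at 7.49 in H19.

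The growth factors showed no difference past the test. Igf2, the main fetal growth factor, was at 7.08, 7.30 and 7.39 in CSD and 6.97, 7.24 and 7.42 in VD pups (lowest, median and highest log2 intensity). The difference was 0.05 (95% interval -0.08 to 0.18, adjusted p = 0.774, limma). The 2 groups overlapped over nearly their whole range.

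H19, the noncoding RNA transcribed beside Igf2, was at 6.67, 6.87 and 7.49 in CSD and 6.61, 6.85 and 7.03 in VD pups. The value of 7.49 came from CSD pup 5, and the other 7 CSD pups lay at 7.04 or below. In that pup the first H19 probe reached 8.49, against 7.14 to 7.75 in the other 15 pups. The log2 fold change was 0.05 (95% interval -0.17 to 0.27, adjusted p = 0.869, limma), and -0.01 without CSD pup 5. It averages the first probe, at -0.02, and the second, which lay near background, at 0.12.

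Igf1, the growth factor that takes over after birth and in the gut is made mainly by mesenchymal cells, was at 8.69, 8.86 and 9.00 in CSD and 8.73, 8.87 and 9.64 in VD pups. The medians were close, and the highest value was that of VD pup 11. In this pup 1 of the 3 Igf1 probes read 9.14, against 6.55 to 7.02 in the other 15 pups, while the other 2 probes of VD pup 11 were within the range of the VD group. The log2 fold change was -0.09 (95% interval -0.33 to 0.14, adjusted p = 0.769, limma), and -0.01 without VD pup 11.

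Neither receptor passed the test, and their differences were not compared with each other. Igf2r, which clears Igf2, was at 11.49, 11.73 and 11.99 in CSD and 11.34, 11.48 and 11.71 in VD pups (lowest, median and highest log2 intensity of its single probe). The groups overlapped, with 4 CSD pups above every VD pup. CSD exceeded VD pups by 0.21 log2 units (standard error 0.07, unadjusted p = 0.0117, adjusted p = 0.177, limma). With sex and litters ignored, the means differed by 0.25 and the exact permutation p was 0.0087 (two-sided, 8 pups per group). The litter means were 11.73 and 11.77 in CSD and 11.53 and 11.45 in VD pups, and the difference was 0.21 within slide 1 and 0.22 within slide 2. Over the alternatives it ranged from 0.18 to 0.26 with an adjusted p from 0.0863 to 0.616, and Igf2r passed in 0 of 38.

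Igf1r, the signalling receptor for both growth factors, was at 7.96, 8.19 and 8.29 in CSD and 7.86, 8.12 and 8.30 in VD pups. The groups overlapped, and the log2 fold change was 0.05 (95% interval -0.09 to 0.19, adjusted p = 0.794, limma). It was -0.08 within slide 1 and 0.17 within slide 2. Of its 4 probes, 2 were higher and 2 lower in CSD pups.

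Neither Lin28 gene differed past the test. Lin28a was at 6.90, 7.07 and 7.14 in CSD and 6.94, 7.08 and 7.26 in VD pups, with a log2 fold change of -0.02 (95% interval -0.13 to 0.08, adjusted p = 0.87, limma). Its detected probe was at 7.82 to 8.35 in CSD and 8.04 to 8.40 in VD pups. Lin28b was at 5.98, 6.05 and 6.25 in CSD and 5.95, 6.04 and 6.47 in VD pups, and no probe was well above background in 13 of the 16 pups. Its differences, here and under other processing, compare signals near background and are not folds. In VD pup 11 the first Lin28b probe read 7.68, against 5.81 to 6.30 in the other 15 pups. This pup thus held the highest value of both Igf1 and Lin28b, each through 1 probe, and the correlation of 0.71 between the genes over 16 pups (delivery means removed) includes it.

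Sex was tested with the same model. None of the 10 genes passed between females and males, against 0.0599% of all genes, and none passed for a delivery effect that differed by sex, against 0.00272% (1 of 36709). Igf2bp2 was higher in females by 0.24 (unadjusted p = 0.0266, adjusted p = 0.744, limma). The delivery effect on Igf1r was lower in females than in males by -0.28 (unadjusted p = 0.0259, adjusted p = 0.981, limma). Among males alone Igf2bp1 differed by 0.41, Igf2bp2 by 0.37 and Igf2r by 0.25. The means of the 4 CSD and 2 VD females were 7.21 and 6.69 for Igf2bp1, 9.57 and 9.47 for Igf2bp2, and 11.80 and 11.67 for Igf2r.

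Bulk tissue cannot tell fewer cells of a type from less RNA per cell, and markers of other cell types were read beside these genes. A marker or list gene is counted as higher or lower in CSD pups by its log2 fold change from limma with sex in the model, which for small differences can have another sign than the plain difference in means. All 10 colonocyte markers were well above background on all arrays, 9 of them were higher in CSD pups (median log2 fold change 0.20) and 0 passed. Slc26a3 was at 0.45, Epcam at 0.17 and Cdx2 at 0.33. Of 7 goblet markers 6 were higher (median 0.18) and 0 passed, with Spdef at 0.29 (adjusted p = 0.0526, limma), Fcgbp at 0.59 and Clca1 at 0.18. The brightest of them, Zg16, was at -0.03. All 8 lymphocyte markers were lower in CSD pups (median -0.41) and 0 passed, with Cd79a at -0.48 (adjusted p = 0.0993, limma) and Jchain, the brightest, at -0.95. Of 8 macrophage markers 7 were lower (median -0.20) and 0 passed, with C1qc at -0.21 (adjusted p = 0.143, limma), Cd68 at -0.26 and Cx3cr1 at -0.28. All 6 fat markers were lower (median -0.22) and 0 passed. The mean log2 level of the lymphocyte list ran from 8.29 to 9.14 in CSD and from 8.83 to 9.73 in VD pups, and that of the colonocyte list from 14.12 to 14.59 and from 13.99 to 14.37. The fold change was below 0 for 7 of 9 fibroblast markers (median -0.08), 6 of 7 smooth muscle markers (median -0.13) and 5 of 6 endothelial markers (median -0.09), and 0 of them passed. The fold change was above 0 for 5 of 7 crypt stem, 5 of 8 enteric neuron and glia, 3 of 7 pancreas, 2 of 5 liver and 1 of 6 skeletal muscle markers, and 0 of these passed. The part of these shifts in the differences of Igf2bp1, Igf2bp2 and Igf2r was not tested. Of the small-intestine markers 5 of 10 were above background on all arrays and Apoa4, Sis and Lct on none. Of these 10 markers 5 were higher and 5 lower in CSD pups, and 1 passed: the brush border peptidase Anpep was lower, at -0.35 (adjusted p = 0.00472, limma). Fabp2, a fatty acid-binding protein of enterocytes, was at 0.63 (unadjusted p = 0.0167, adjusted p = 0.207, limma), with 5 CSD pups above every VD pup. The stem cell marker Olfm4, which is nearly absent from mouse colon, was above background on none.

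Genes that act around the 10 were read from lists. Of 9 IGF binding proteins, which hold the growth factors outside cells, 3 were higher and 6 lower in CSD pups and 0 passed. The smallest p was that of Igfbp7, at -0.23 (adjusted p = 0.134, limma), followed by Igfbp5 at -0.19 and Igfbpl1 at 0.10. Of 20 genes of the insulin and IGF receptor pathway 10 were higher and 10 lower, and only Insrr passed. Insrr, the insulin receptor-related receptor that senses alkaline pH, was at 7.91, 8.23 and 8.46 in CSD and 8.45, 8.59 and 8.80 in VD pups (lowest, median and highest log2 intensity). CSD minus VD was -0.40 log2 units (standard error 0.07, adjusted p = 0.0161, limma), with 7 of 8 CSD pups below every VD pup.

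Around Lin28, 0 of 13 genes that process let-7 passed. Dicer1, which cuts the precursors, was nearest, at 0.15 (adjusted p = 0.0657, limma), followed by the uridylyl transferase Zcchc11 (Tut4) at -0.12 and the exonuclease Dis3l2 at 0.06. Of 22 known let-7 targets 13 were higher and 9 lower, and only Myc passed. Myc, a transcription factor of growth that is also a classical Igf2bp1-bound mRNA, was at 8.46, 8.54 and 8.68 in CSD and 8.10, 8.20 and 8.34 in VD pups. The groups did not overlap, which held for 0.493% of all genes. Myc was higher in CSD pups by 0.33 (standard error 0.04, adjusted p = 0.00254, limma).

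Of 14 mRNAs known to be bound by Igf2bp proteins, Myc alone passed, 7 were higher and 7 lower, and the brightest, Actb, was at -0.12. Of 17 partner proteins and m6A factors 11 were higher and only Fmr1 passed. Fmr1, the fragile X RNA-binding protein, which shares RNA granules with Igf2bp1, was at 8.24, 8.41 and 8.50 in CSD and 7.91, 8.16 and 8.24 in VD pups. Every CSD pup was above every VD pup, but the lowest CSD pup (8.23609) and the highest VD pup (8.23525) were nearly level. The groups did not overlap for 0.493% of all genes. The log2 fold change of Fmr1 was 0.28 (standard error 0.05, adjusted p = 0.0242, limma).

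Among 30 imprinted growth genes 18 were higher, 12 lower and 0 passed. Dlk1, a paternally expressed growth gene that is also a fetal marker, was at 7.70, 8.17 and 8.74 in CSD and 6.94, 7.62 and 7.89 in VD pups. The difference of 0.52 log2 units (standard error 0.15, adjusted p = 0.0921, limma) left 6 CSD pups above every VD pup. Dcn was at -0.18 and Impact at -0.12. Of 11 genes of the fetal intestinal epithelium 0 passed, and Clu, a marker of fetal and regenerating epithelium, was at -0.43 (adjusted p = 0.0997, limma) and Ly6a at 0.15.

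**Figure D4:**
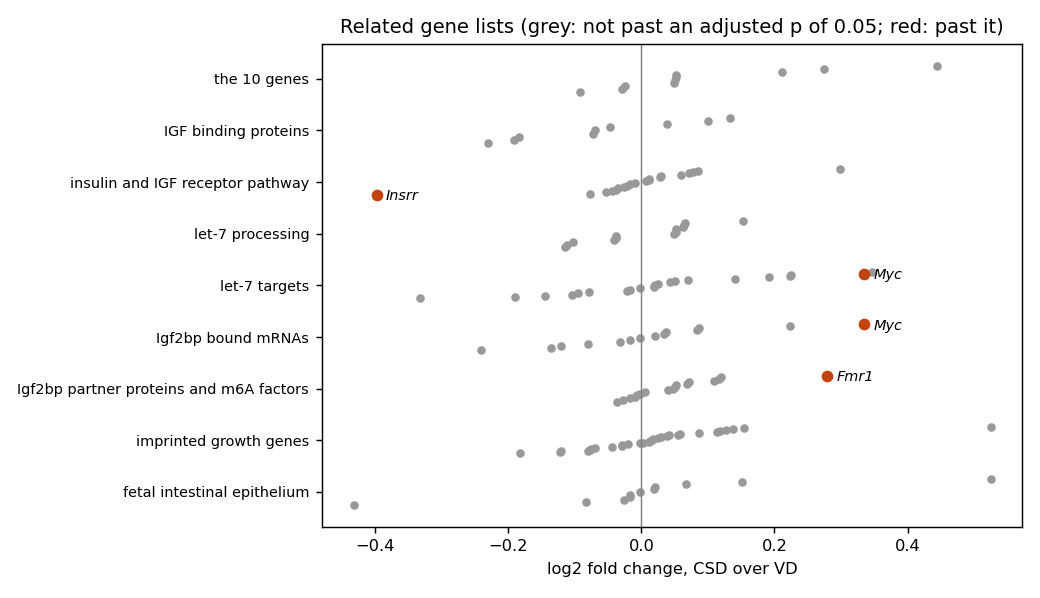
Log2 fold change of CSD over VD pups (x axis) for every gene of the 10 and of the 8 related lists (y axis), with 1 point per gene. Insrr (-0.40), Myc (0.33, in 2 lists) and Fmr1 (0.28), in red, passed an adjusted p of 0.05.

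Of 36 distinct genes among the 2 nearest measured on either side of each of the 10, 3 passed (8.33%), against 1.25% of all genes. They were B4galnt2, Tra2a and Ccdc126, the last 2 of which lie beside each other. B4galnt2, a glycosyltransferase that makes a blood-group-like glycan on gut epithelium and lies next to Igf2bp1 on chromosome 11, was at 6.19, 6.36 and 9.43 in CSD and 8.61, 9.10 and 9.62 in VD pups. All 4 pups of mother 4 lay between 6.24 and 6.45, while those of mother 3 were at 6.19 (pup 8), 7.87 (pup 9), 8.04 (pup 5) and 9.43 (pup 3). B4galnt2 was thus at 8.61 or above in every VD pup and in 1 CSD pup, at 7.87 and 8.04 in 2 and at 6.45 or below in 5. The 5 low values lie near the lowest signal well above background (6.05 to 6.43), and in 3 of the 8 CSD pups neither probe was well above background, so the size of the difference is limited by that floor. As measured, CSD minus VD was -2.10 log2 units (standard error 0.42, adjusted p = 0.0256, limma), of opposite sign to that of Igf2bp1. Its 2 probes differed in size, at -0.70 and -3.50. Igf2bp1 was highest in CSD pup 2 (7.67) and lowest among CSD pups in pup 3 (6.95), which are of mothers 4 and 3. The part of this neighbour in the difference of Igf2bp1 was not tested. With 2 litters of an outbred stock per group, delivery mode cannot be told apart here from alleles that differ between litters.

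On the other side of Igf2bp1, Gip was near background (0.18, adjusted p = 0.615, limma). Beside Igf2bp3 on chromosome 6, the splicing factor Tra2a was higher in CSD pups by 0.24 (adjusted p = 0.0242, limma) and its neighbour Ccdc126 by 0.25 (adjusted p = 0.0292, limma), while Igf2bp3 itself was at 0.05. The groups overlapped in both, with 7 of 8 CSD pups above every VD pup for Tra2a and 6 of 8 for Ccdc126. Near Igf2r, the antisense RNA Airn, which silences the paternal Igf2r copy, was at 0.13 (adjusted p = 0.528, limma). Beside Igf1, its antisense transcript Igf1os was at 0.18 (adjusted p = 0.251, limma).

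**Figure D5:**
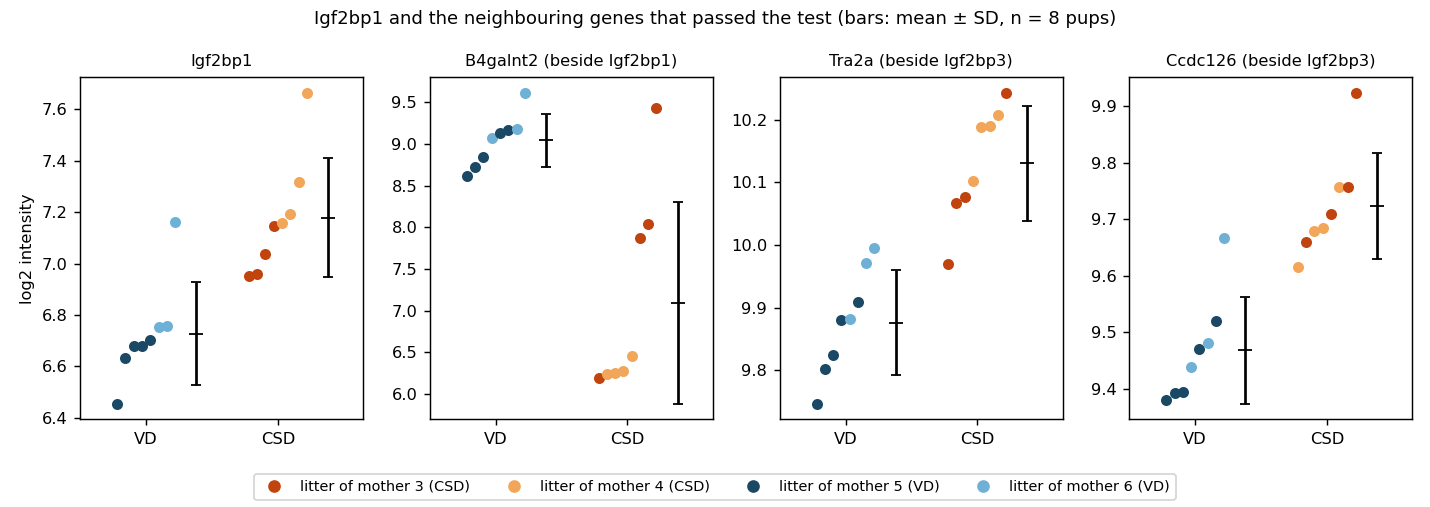
Log2 intensity (y axis, one scale per panel) of Igf2bp1, its neighbour B4galnt2 and the Igf2bp3 neighbours Tra2a and Ccdc126 in VD and CSD pups, coloured by litter, with mean ± SD over 8 pups. B4galnt2 is low in the 4 pups of mother 4 and spread from 6.19 to 9.43 in those of mother 3.

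Lin28b was left out of the search for similar genes, since it was not above background on 12 arrays. The genes most like each of the others across the 16 pups were found by Pearson correlation after the delivery means were removed, among 22066 genes above background on at least 12 arrays. With so many genes and 16 pups the best match is high for any gene, and single pups such as VD pup 11 can set it. Igf2bp1 was most like a transcript without a gene symbol (r = 0.87), Per1 (0.84) and Ifnk (0.84). Igf2bp2 was most like Cdk18 (0.86) and Lrp1 (0.83), Igf2r most like Capn13 (0.84), and Igf1r most like Cyyr1 (0.93). Igf1 was most like Vwa1 (0.95), H19 most like Sphkap (0.87), Igf2 most like Cp (0.82) and Lin28a most like Myg1 (0.80). Among the 10 themselves, Igf2bp2 and Igf2r had r = 0.52, Igf1r and Igf2r r = 0.58, and Igf2bp2 and Igf2bp3 r = -0.64, while Igf2bp1 and Igf2bp2 had r = -0.09.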

How the data were processed

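The authors deposited the Feature Extraction 12.0.3.2 scanner output of each array, with a mean intensity, a local background intensity and marks per spot, and a gene matrix in log2 units that they made with limma 3.38 (corrected, quantile normalized, filtered for dim probes, averaged by gene). From the scanner output, normexp correction (offset 50), removal of control and outlier spots, a log2 scale and quantile normalization were applied with limma 3.58.1 in R 4.3.3. After spots were averaged by probe, 56366 of 56605 probes exceeded their array's 5% quantile on 4 or more arrays and went into gene means. The correction behind the matrix is not given in the sources used here. The offset compresses low signals. Igf2bp1 was at 0.76 with offset 0 (adjusted p = 0.0844, limma) and at 0.62 with offset 16 (adjusted p = 0.0663, limma), and passed with neither. Why Igf2bp1 passed in the matrix was not tested. The matrix served as an alternative.

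Delivery mode and sex were fixed effects and the mother a random effect (duplicateCorrelation, consensus 0.0152), with lmFit, eBayes and Benjamini-Hochberg adjustment over all 36711 genes. The model was tested on simulated data, in which more of its calls were false than the 5% set. Exact permutation tests used all 12870 assignments, so that the smallest possible p was 0.000155.

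The 10 genes and the gene lists were chosen with earlier results of these data known. The study that made the arrays had reported Igf2bp1 and Myc as increased in CSD pups. Named in the text are all 10 genes, the genes of each related list that passed or otherwise the 3 with the smallest p, some of the 3 most similar genes, and chromosome neighbours from the GRCm38.p6 table. Marker lists follow the same rule for colonocytes, goblet cells, lymphocytes and macrophages, and the other marker lists are given by counts; 1 gene under this rule is not reported here. Probe positions are mm9. Actb, Zg16, Jchain, Apoa4, Sis, Lct, Olfm4 and Anpep are named as the brightest, the undetected or the called genes of their lists. Fabp2 was chosen after its values were seen. Alternatives changed the correction, scaling, filter, probe choice, model terms and samples. Sequences came from the scanner output and RefSeq. The number of arrays and litters limits precision. Whether the pups of a litter count as independent is set by the model alone.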

Additional observations from a re-analysis of the deposited data

Results flagged for a closer look

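In 20 sets of 8 pups (10 genes in each delivery mode), 3 held a pup that stood apart by Dixon's test, where chance gives about 1 in 20. Igf2bp1 read 7.16 in VD pup 7, against 6.76 in the next VD pup. H19 read 7.49 in CSD pup 5, against 7.04 in the next CSD pup. Igf1 read 9.64 in VD pup 11, against 9.11 in the next VD pup, and the excess came from 1 of its 3 probes.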

How the results depend on the processing

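Igf2bp1, Igf2bp2, Igf2bp3 and Igf2r kept a positive difference in all 38 alternatives, and Igf2bp1 passed in 4 of them. The count of genes that passed, 460 in the main fit, became 102 (offset 0), 243 (offset 16), 177 (scanner-corrected intensity, quantile normalized) and 164 (the same minus the 75th percentile). It was 170 with the deposited matrix, 992 with no sex, 11 on slide 1, and 0 on slide 2, in males and with litter means. On slide 2, in males and with litter means, 3789, 3295 and 4034 genes were under 0.05 unadjusted. The count of probes that passed was 980 in the main fit and 344, 599, 510 and 453 under the first 4 alternatives. Leaving out a pup or litter gave 138 to 2265 genes and 0 or 1 of the 10 genes. Of the 10, 1 (Igf2bp1) passed with the deposited matrix and with no sex, and 0 otherwise outside the leave-outs.

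The numbers in the pups' titles did not pair CSD with VD pups (correlations from -0.05 to 0.22, and 2 of 5 CSD pups were most like their own number). With the number as a replicate block 0 genes passed (3582 unadjusted); Igf1 was then at 0.023 and Lin28b at 0.044. Other values changed sign without passing the test. Lin28b, near background, was at 0.056 with the 75th percentile, 0.14 with the brightest probe and 0.30 in the matrix; H19 was at -0.021 with the strict filter and -0.019 with the brightest probe; on slide 1 Igf1r was at -0.077 and Lin28a at 0.074. Leaving out a pup or litter gave H19 -0.028 to 0.13, Lin28b -0.085 to 0.072, Igf1 -0.16 to 0.030 and Igf2 -0.012 to 0.11. The cause of these changes was not tested. Signals near background (Lin28b, H19 probe 2) have little room to fall.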
